A study of Mus musculus with 24 samples.

Results

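The array used here interrogated 523 transcripts, almost all from distal mouse chromosome 2, and 40 of them had no gene symbol in the annotation of the platform. These 40 were known only by a GenBank accession, and they made up 40 of the 341 genes and transcripts that were tested. They were taken by that rule alone, without regard to their signal. Samples came from C57BL/6J mice, labelled B6, and from congenic mice of the strain B6.S-2, which carry SPRET/Ei DNA on distal chromosome 2 in the B6 background. SPRET/Ei is an inbred strain of the wild species Mus spretus. Both genotypes were sampled in 4 tissues: gastrocnemius muscle of the hind leg, the epididymal fat depot (white adipose tissue), liver and whole brain. Each of the 8 groups held 3 samples, which makes 24 arrays. Age, sex and diet are given for no single sample. The growth protocol, shared by all samples, speaks of F2 mice, of chow and of a high fat diet for some congenic males, and the treatment field calls every sample congenic. The genotype of a sample therefore rests on its title.

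A transcript without a symbol is usually a complementary DNA that was sequenced before it could be tied to a gene. Accessions beginning with AK come from a large collection of full-length mouse clones made at RIKEN, and those beginning with BC from the Mammalian Gene Collection. Those beginning with AF, AY, J, M or U come from submissions of single laboratories. No origin is given here for those beginning with S. Such records can be parts of coding genes, antisense RNAs, transcripts of repeated sequence or non-coding RNAs, and the accession alone does not say which. Of the 40 accessions, 0 were listed in the RefSeq gene table of GRCm38, so no name, product or sequence is given to any of them here.

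The 40 transcripts differed in build from the 483 with a symbol. A single exon row stood for 17 of the 40 (42.5%), against 39 of 483 named transcripts (8.07%). The median was 2 exon rows against 5. Full-length RIKEN clones were 20 of the 40 (50%), close to the 44.1% among named transcripts, while Mammalian Gene Collection records were 7 of 40 (17.5%) against 34.8%. The minus strand held 18 of the 40 (45%) and 47.0% of the named transcripts. Strand was read from the order of the listed coordinates.

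All 40 transcripts lay on chromosome 2, at 33 separate loci. The 36 transcripts described singly, at 32 loci, started at base 140581209 for the first and ended at base 167251888 for the last, by coordinates from the files, whose genome build is not given in the sources used here. A named gene here is one with a symbol on this array, spanned by its listed exon rows. Genes that the array does not carry were not looked at and may lie nearer. Of these 36, 10 lay inside or across a named gene and 26 lay outside, at a median distance of 17295 bases from the nearest named one. Within 10 kb of a named gene, but outside it, there were 10. Among the 10 inside a gene, 3 ran on the strand of that gene and 7 on the other strand. The strand that the probes read is not given in the sources used here, so for the 4 opposite-strand transcripts with exon rows overlapping those of the named gene the signals of both RNAs may not be separable.

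The 3 same-strand cases were AF233333 in Otor, which encodes the secreted inner ear protein otoraplin, AK033371 in Dtd1, a deacylase that clears D-amino acids from transfer RNA, and BC002127 in a, the agouti gene of coat colour. All 4 exon rows of AF233333 overlapped those of Otor, whereas AK033371 and BC002127 each had 1 exon row lying between exons of the host. The opposite-strand cases were AK076437 in Apmap, AK088963 and AK083524 in Cdk5rap1, AK015848 and AK053350 in Zfp341, AK040896 in Cnbd2 and AK011956 in Rbl1. At 4 loci described here a pair of accessions overlapped each other: AF303451 with AF303452, AK083524 with AK088963, AK015848 with AK053350 and M64228 with BC051422. Members of a pair share sequence and are not independent observations. The longest transcript was AF244125, on the minus strand at chr2:161590971-162724496, with 30 exon rows over 1133526 bases and its nearer end 15 bases from 9430021M05Rik on the other strand.

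Values below are log2 intensities after background correction and quantile normalization over the 24 arrays, with the exon rows of a transcript joined by median polish. Tests are those of limma, fitted over all 341 genes and transcripts, and a call means a Benjamini-Hochberg adjusted p under 0.05 over all of them. Levels are compared between samples for 1 transcript, never between transcripts as amounts of RNA. Median raw intensity ran from 232 to 3571 between arrays. It ran from 232 to 1237 on slide 1 and from 916 to 3571 on slide 2. Slide 1 carried all brain and liver arrays, slide 2 the arrays of adipose and muscle, so a difference between tissues of different slides cannot be told apart from one between slides. Brain with liver and adipose with muscle were therefore compared within a slide. Markers of each labelled tissue were highest there, with 1 exception among the listed genes. The muscle genes Tnnc2 and Mylk2 summed to between 14.57 and 14.71 in muscle and to at most 10.49 elsewhere. The neuronal genes Napb and Snhg11 summed to at least 11.57 in brain and to at most 10.60 elsewhere. The 4 hepatocyte genes summed to between 13.32 and 13.95 in liver and to at most 12.27 elsewhere, a sum carried by Ahcy, while Foxa2 was higher in muscle (10.62) than in liver (10.47). The adipocyte genes Adig, Lep and Pltp separated least, with 12.37 to 12.61 in adipose and 11.92 to 12.20 elsewhere.

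More of these transcripts differed between tissues, also within a slide, than between genotypes. Across the 4 tissues 31 of the 40 differed by the F test, where 71.6% of all genes tested were called. That test spans both slides, so tissue and slide cannot be told apart in it. Within slide 1, 16 of 40 differed between brain and liver, beside 34.3% of all genes. Of these, 8 were higher in brain (17.3% of all genes were) and 8 lower (17.0%). Within slide 2, 15 of 40 differed between adipose and muscle, beside 36.1% of all genes. Of these, 8 were higher in adipose (15.8% of all genes were) and 7 lower (20.2%). The totals were close to the share on the whole array. The range of tissue means had a median of 0.38 on the log2 scale over the 36 described transcripts and 0.27 over all genes tested. It was over 1 for 6 transcripts and under 0.2 for another 6. Of the 28 described transcripts past the F test, 11 had their highest mean in adipose (39.3%), 7 in liver (25%), 5 in brain (17.9%) and 5 in muscle (17.9%). Of all 244 genes past that test, 25% were highest in adipose, 25.8% in liver, 18.9% in brain and 30.3% in muscle. The 11 highest in adipose include both transcripts of the overlapping pairs AF303451 with AF303452 and AK083524 with AK088963. Both pairs are also among the 6 with a range over 1, whereas a gene with a symbol counts once. The range and this ranking also cross the slides, and the difference in shares was not tested.

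**Figure D1:**
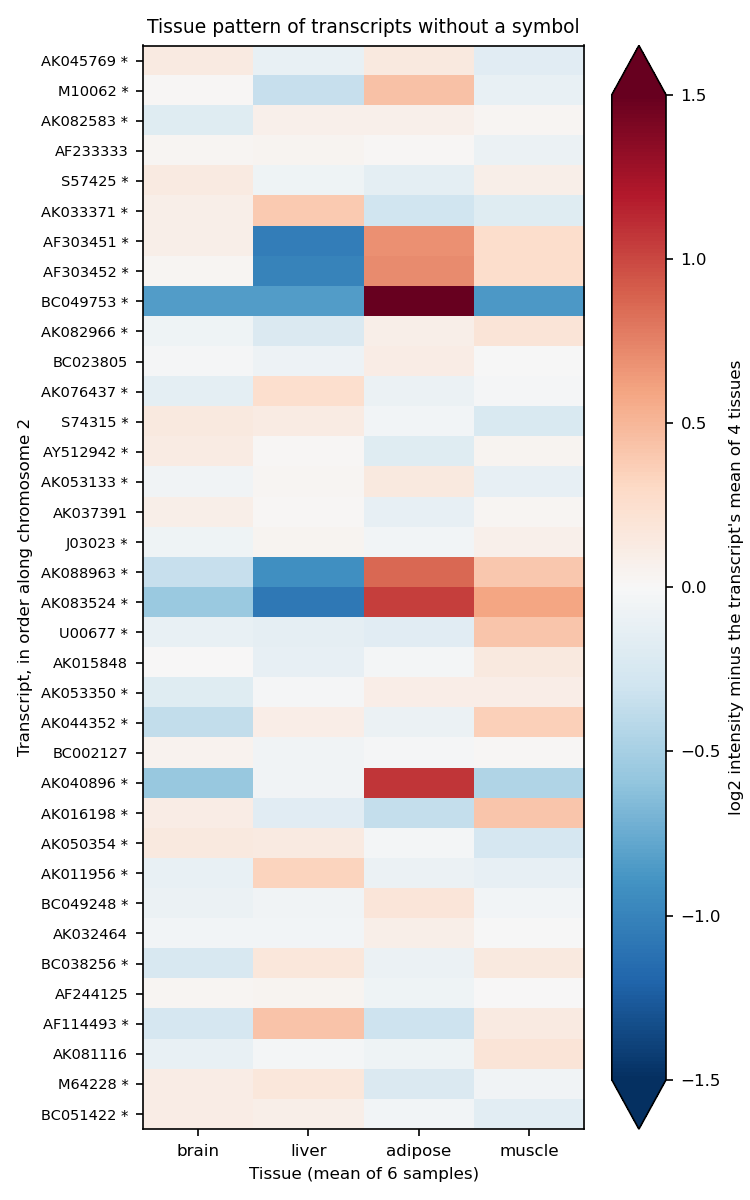
Heat map of the 36 transcripts in order along chromosome 2 (rows) in 4 tissues (columns, mean of 6 samples each), coloured by the log2 intensity minus the mean of the transcript over tissues, with the scale ending at 1.5; a star marks the 28 past the tissue F test. BC049753 and AK040896 stand out in adipose, the overlapping pairs AF303451 with AF303452 and AK088963 with AK083524 are low in liver and high in adipose, and U00677 is high in muscle.

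The widest tissue difference belonged to BC049753, on the plus strand at chr2:148551392-148558140. It lies 5402 bases from Cst12, a member of the cystatin family of cysteine protease inhibitors. In adipose tissue the 3 B6 samples read 13.19, 12.88 and 12.85 and the 3 congenic samples 12.39, 12.98 and 12.25. In muscle the B6 samples read 9.08, 9.30 and 9.97 and the congenic samples 9.21, 8.98 and 9.54. Every adipose sample was above every sample of the other tissues. The difference between adipose and muscle was 3.41 ± 0.14 (SE, n = 6 per tissue, adjusted p = 3.54e-14), about 10.6-fold, while brain (9.37 ± 0.16, SD, n = 6) and liver (9.38 ± 0.08, SD, n = 6) stood at the level of muscle (9.35 ± 0.36, SD, n = 6).

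The adipose signal of BC049753 came from 3 of its 4 exon features. Feature 1 read 9.68 in adipose and 9.85 in muscle. Features 2, 3 and 4 read 12.61, 12.90 and 13.12 in adipose, against 9.63, 8.99 and 8.18 in muscle. The neighbour Cst12 was also highest in adipose, at 12.26, and stood between 9.55 and 9.74 in the other tissues. Cst12 belongs to a list of 6 genes of the epididymis, the duct that stores sperm and that adjoins this fat depot. All 6 were measured, and their summed level was between 14.98 and 15.29 in the adipose samples of both genotypes and between 11.91 and 12.52 in all other samples. The part of epididymal RNA in the level of BC049753, and of the other transcripts high in adipose, was not tested. Between genotypes BC049753 in adipose differed by -0.43 ± 0.20 (SE, adjusted p = 0.598), with overlapping samples.

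AK040896 was the other transcript with a wide adipose excess. It runs on the minus strand at chr2:156423712-156426595, inside an intron of Cnbd2, a gene of the plus strand whose product carries a cyclic nucleotide binding domain. The adipose samples read 12.13, 12.59 and 12.25 in B6 and 11.90, 12.06 and 12.23 in congenic mice. The muscle samples read 10.69, 10.69 and 10.67 in B6 and 10.87, 10.48 and 10.64 in congenic mice. All adipose samples were again above all others, by 1.52 ± 0.09 over muscle (SE, n = 6 per tissue, adjusted p = 1.22e-11). Liver followed at 11.07 ± 0.23 (SD, n = 6), above brain at 10.55 ± 0.08 (SD, n = 6), and brain was lower than liver by the test (-0.52 ± 0.09, SE, adjusted p = 0.000112). The host gene did not have this order: Cnbd2 read 8.50 in adipose and 8.69, 8.70 and 8.41 in brain, liver and muscle.

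Low liver and high adipose means were found for 2 of the 4 overlapping pairs, AF303451 with AF303452 and AK083524 with AK088963. AF303451 (chr2:144874760-144875447) and AF303452 (chr2:144874769-144875447) are both of the minus strand, with the coordinates of 1 exon feature in common. They lie 298367 bases or more from the nearest named gene on the array. AF303452 read 8.88, 9.10 and 9.43 in B6 liver and 9.41, 8.70 and 9.26 in congenic liver. It read 10.29, 9.77 and 9.99 in B6 brain and 9.90, 10.59 and 10.37 in congenic brain. No liver sample reached a brain sample. Brain was higher than liver by 1.02 ± 0.16 for AF303452 (SE, adjusted p = 5.28e-05) and by 1.12 ± 0.18 for AF303451 (SE, adjusted p = 4.21e-05). Adipose was higher than muscle by 0.45 ± 0.16 for AF303452 (SE, adjusted p = 0.0376), while the same difference of AF303451, 0.42 ± 0.18 (SE, adjusted p = 0.0684), did not pass.

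The pair within Cdk5rap1, a gene that modifies transfer RNA, was AK088963 (chr2:154419041-154422879) and AK083524 (chr2:154419569-154422883), on the strand opposite to the gene. AK088963 read 9.35, 9.22 and 9.41 in B6 liver and 9.94, 9.88 and 9.59 in congenic liver. In brain it read 10.18, 9.61 and 10.48 in B6 and 9.70, 10.77 and 10.14 in congenic mice. Liver and brain overlapped in part, and brain was higher by 0.58 ± 0.20 (SE, adjusted p = 0.0314). Adipose stood at 11.36 ± 0.45 and muscle at 10.89 ± 0.48 (SD, n = 6 each). The difference of 0.47 ± 0.20 (SE) missed the threshold (adjusted p = 0.0783). It passed under 5 of the 8 other settings, among them a setting chosen after seeing the data. In the fits without 1 array it ran from 0.29 to 0.62. The highest adjusted p of limma over all these fits and settings was 0.293. AK083524 had the same order of means, 8.28 in liver, 8.81 in brain, 9.95 in muscle and 10.40 in adipose, with wide spread. It passed the F test (adjusted p = 7.86e-06) but neither comparison within a slide. Cdk5rap1 itself read between 8.85 and 9.25 in the 4 tissues.

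M10062, on the minus strand at chr2:141946222-142059977 and 400974 bases from Kif16b, a kinesin of endosomes, belonged to the adipose group as well. Adipose read 9.49, 10.15 and 9.80 in B6 and 9.47, 10.09 and 9.51 in congenic mice. Muscle read 9.56, 9.20 and 9.15 in B6 and 8.79, 9.15 and 9.37 in congenic mice. The tissues overlapped in 1 B6 muscle sample, and adipose was higher by 0.55 ± 0.14 (SE, adjusted p = 0.00519). The other 4 transcripts higher in adipose than in muscle were AK045769, AK053133, AK050354 and BC049248, by 0.22 to 0.31.

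Muscle was the highest tissue of U00677, on the minus strand at chr2:154439676-154471430 and 3608 bases from Cdk5rap1. The muscle samples read 10.72, 10.72 and 10.86 in B6 and 10.63, 10.75 and 10.67 in congenic mice. The adipose samples read 10.39, 10.12 and 10.13 in B6 and 10.11, 10.02 and 10.11 in congenic mice. Every muscle sample was above every sample of the other tissues, and adipose was lower than muscle by 0.58 ± 0.05 on the log2 scale (SE, n = 6 per tissue, adjusted p = 5.51e-09). Of its 8 exon features, 7 had their highest mean in muscle. AK044352 (chr2:154801950-154803361, plus strand, 43819 bases from Chmp4b) read 10.90, 10.69 and 10.62 in B6 muscle and 10.77, 10.99 and 10.70 in congenic muscle. In adipose it read 10.46, 10.35 and 10.18 in B6 and 10.58, 10.17 and 10.31 in congenic mice, so the tissues did not overlap. Adipose was lower by 0.44 ± 0.09 on the log2 scale (SE, adjusted p = 0.00043). Chmp4b, a subunit of the membrane-cutting complex ESCRT-III, also had its highest mean in muscle, at 10.52. AK016198, described with the genotype calls, read 10.68, 10.46 and 10.78 in B6 muscle and 10.58, 10.53 and 10.52 in congenic muscle. All its muscle samples were above its adipose samples, which were lower by 0.77 ± 0.09 on the log2 scale (SE, adjusted p = 3.65e-07).

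**Figure D2:**
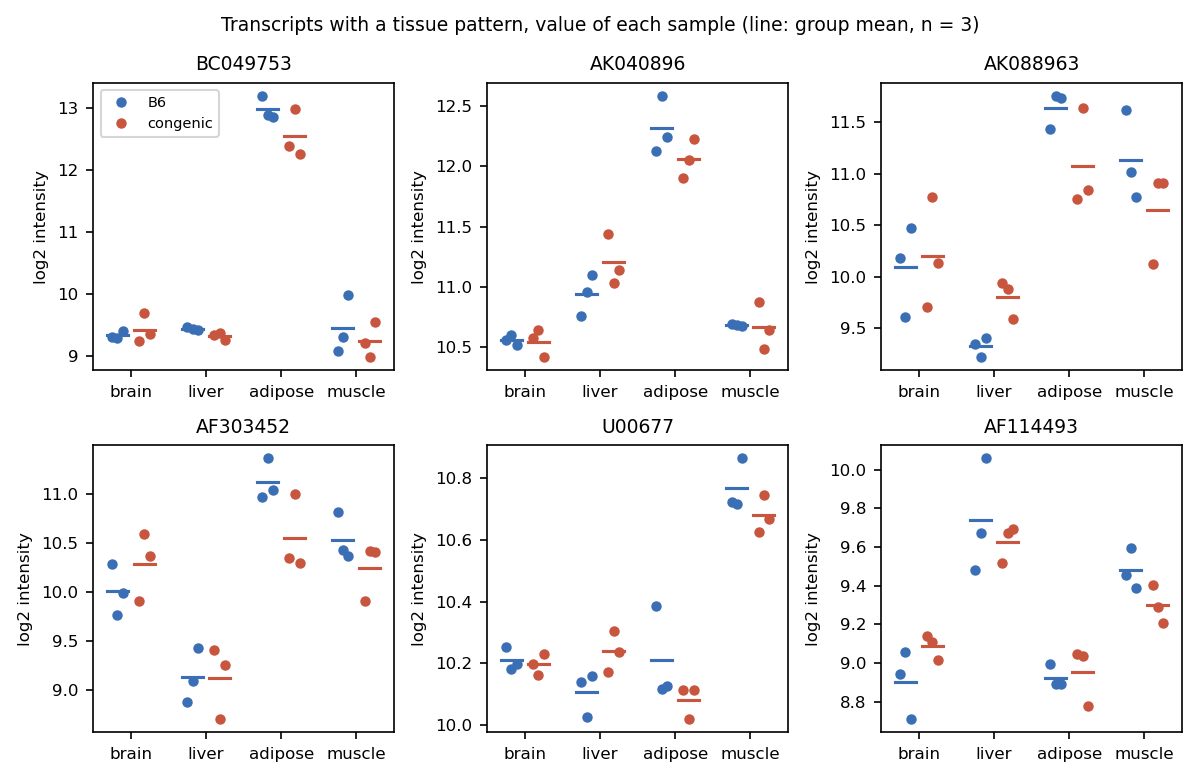
Log2 intensity (vertical axes, each with its own range) of 6 transcripts in every sample by tissue, B6 in blue and congenic in red, with a line at the mean of each group of 3. Adipose samples of BC049753 and AK040896 and muscle samples of U00677 lie apart from all other samples, while the samples of AK088963 and AF303452 spread widely within groups.

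Liver was the highest tissue of AF114493, a transcript with 1 exon row at chr2:162962145-162963077 on the minus strand, 31816 bases from the splicing factor gene Srsf6. Liver read 9.48, 9.67 and 10.06 in B6 and 9.52, 9.67 and 9.69 in congenic mice. Brain read 8.94, 9.06 and 8.71 in B6 and 9.14, 9.11 and 9.02 in congenic mice. The tissues did not overlap, and brain was lower by 0.69 ± 0.08 on the log2 scale (SE, adjusted p = 1.36e-06). Adipose was also lower than muscle, by 0.45 ± 0.08 on the log2 scale (SE, adjusted p = 0.000192). Srsf6 had the opposite extreme, its lowest mean being that of liver, 8.80, against 9.62 in adipose.

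AK011956, on the plus strand at chr2:157267652-157270163, overlaps the end of Rbl1, a gene of the retinoblastoma family on the minus strand. It read 10.24, 10.32 and 10.16 in B6 liver and 10.80, 10.35 and 10.49 in congenic liver. Its brain samples read 9.82, 9.85 and 10.07 in B6 and 9.99, 9.79 and 10.17 in congenic mice. The highest brain sample was just above the lowest liver sample, and brain was lower by 0.44 ± 0.13 on the log2 scale (SE, adjusted p = 0.0126). Rbl1 stood between 8.67 and 8.73 in all tissues. AK033371, the transcript within Dtd1 at chr2:144445204-144447904, was lower in brain than in liver by 0.30 ± 0.10 on the log2 scale (SE, adjusted p = 0.023). That call was lost without B6 liver replicate 1 (adjusted p = 0.0616) or congenic brain replicate 3 (adjusted p = 0.0638). Dtd1, on the same strand, had the other order, with 10.27 in brain and 9.67 in liver.

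Among the described transcripts past the F test, 5 had their highest mean in brain. The rule for naming took AY512942 (chr2:152409017-152438673, plus strand, 1636 bases from the pseudokinase gene Trib3), S57425 (chr2:143901205-143901391) and S74315 (chr2:151268316-151404555). Brain minus liver was 0.11 ± 0.06 for AY512942 (SE, adjusted p = 0.216), 0.20 ± 0.09 for S57425 (SE, adjusted p = 0.0886) and 0.02 ± 0.09 for S74315 (SE, adjusted p = 0.905). None of the 3 passed that test with the settings used throughout, and their place under brain ranks tissues across slides. AY512942 passed with the mean of exon features in place of median polish (0.25, adjusted p = 0.00244) and without B6 liver replicate 3 (0.18, adjusted p = 0.00819). S57425 passed with the well row block (0.23, adjusted p = 0.0337), without B6 liver replicate 2 (0.24, adjusted p = 0.0411) and without congenic liver replicate 3 (0.24, adjusted p = 0.0401).

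The remaining transcripts that differed between brain and liver were AK044352, AK076437, BC038256 and AK082583, lower in brain by 0.25 to 0.47 on the log2 scale, and AK045769 and AK016198, higher by 0.25 and 0.28. In the group means each of these last differences was seen in 1 genotype only. The genotype by tissue interaction did not pass for AK045769 (limma F test, adjusted p = 0.4997) or AK016198 (adjusted p = 0.346). AK045769 had a mean of 9.48 in both tissues of B6 mice, and 9.84 in brain against 9.35 in liver of congenic mice. AK016198 had 10.57 in brain against 9.99 in liver of B6 mice, and 10.01 against 10.02 in congenic mice. Those that differed between adipose and muscle were S57425, AY512942 and M64228, lower in adipose by 0.16 to 0.24. A total of 8 described transcripts did not pass the F test over tissues: AF233333, AF244125, AK015848, AK032464, AK037391, AK081116, BC002127 and BC023805. BC002127 read between 12.23 and 12.34 in the 4 tissue means and BC023805 between 7.07 and 7.25. Near the dim end of the array differences are compressed. By percentile among all genes tested, S57425 lay at 1.2 to 3.8 over the tissues. AF233333 lay at 1.5 to 4.4 and BC023805 at 0.29 in every tissue.

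The highest tissue, ranked across slides, was shared with the overlapping or nearest named gene by 8 of the 36 transcripts, a count that was not set against pairs of named genes. BC049753 with Cst12 and U00677 with Cdk5rap1 were among these, and AK040896 with Cnbd2 was not.

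Genotype calls were few. Congenic and B6 mice were compared within each tissue. The question was whether the donor segment, or anything else that differs between the strains, goes with a change in signal. Whether the probes match SPRET/Ei DNA as well as B6 DNA was not tested. A lower signal in congenic mice, of a transcript or an exon feature, is therefore not shown to be lower RNA. In brain 1 of the 40 transcripts was called, and it was lower in congenic mice, beside 0.880% of all genes tested. In liver 0 of 40 were called (0.587% of all genes), in adipose 0 of 40 (1.47%), in muscle 0 of 40 (0.587%) and in the mean of the 4 tissues 0 of 40 (2.05%). The genotype by tissue interaction gave 0 of 40 (0.293%). At an unadjusted p under 0.05, limma gave 4 of 40 in brain (10.9% of all genes), 4 in liver (13.2%), 4 in adipose (7.92%), 1 in muscle (4.99%), 2 in the mean (15.0%) and 3 in the interaction (8.50%).

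The median change over the 40 transcripts was 0.014 for brain (0.0043 over all genes tested) and 0.0092 for liver (0.0056 over all genes). It was -0.078 for adipose (-0.00070 over all genes) and 0.0096 for muscle (0.012 over all genes). The change was above 0 for 13 of 40 transcripts in adipose and for 21 of 40 in each of the other tissues.

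**Figure D3:**
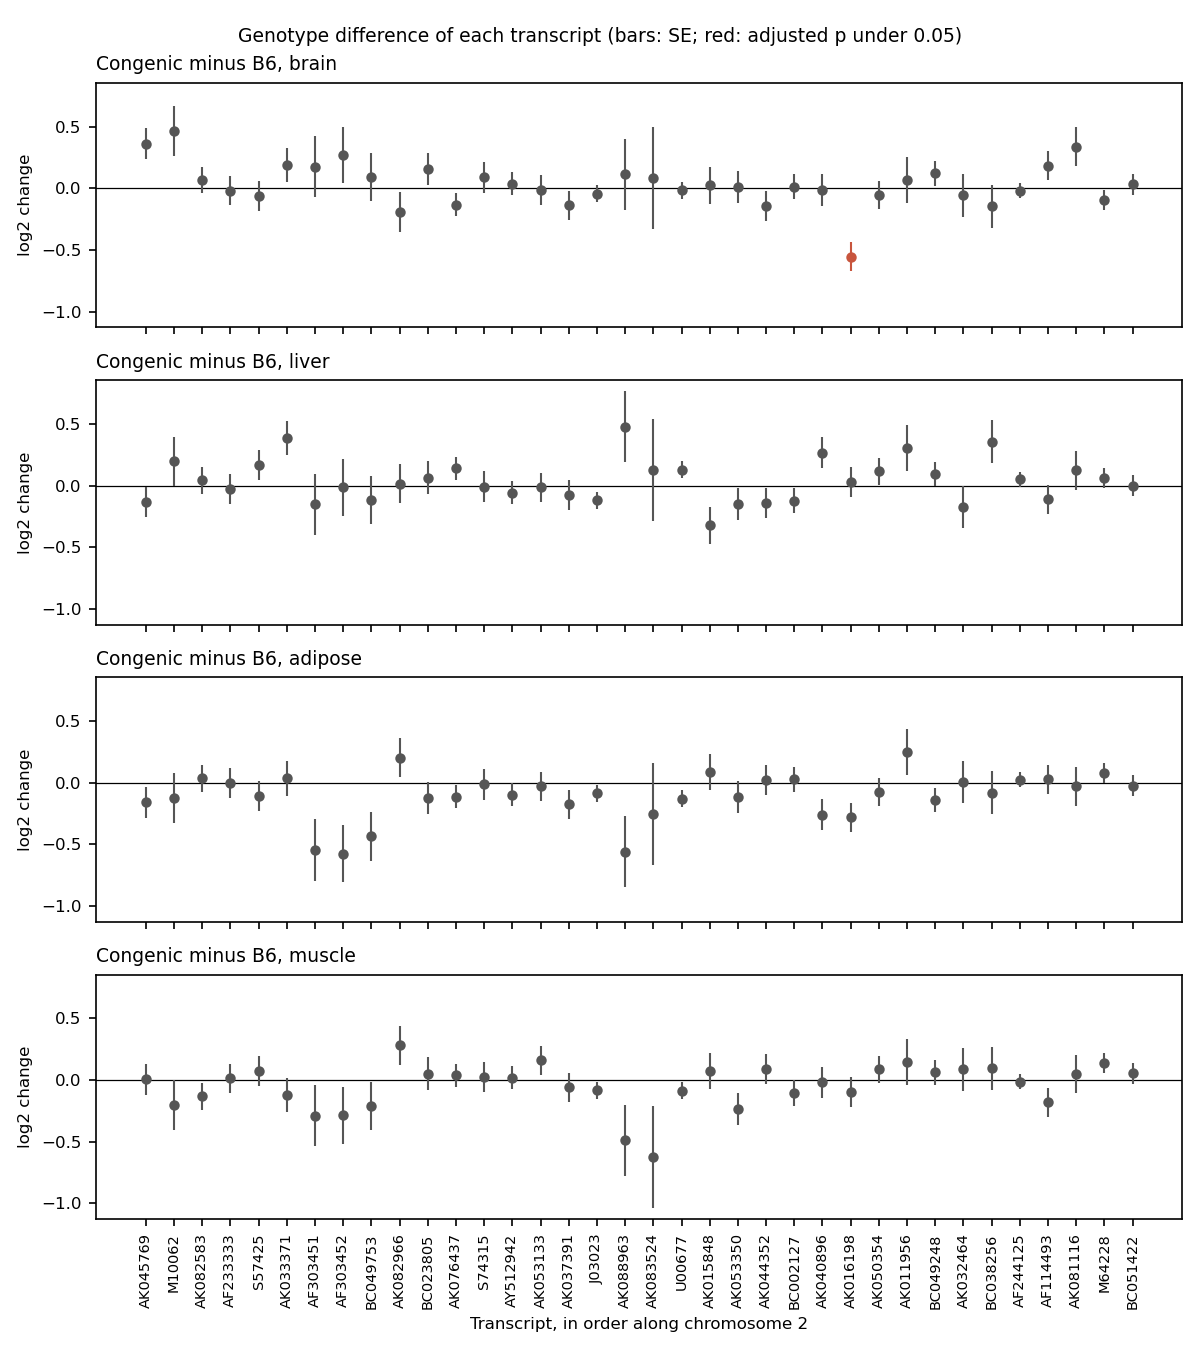
Congenic minus B6 difference in log2 intensity (vertical axes) of the 36 transcripts in order along chromosome 2, in 1 panel per tissue, with bars for the standard error of limma. AK016198 in brain, at -0.55, is the single red point, the one with an adjusted p under 0.05.

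The called transcript was AK016198, with 2 exon features on the minus strand at chr2:156455179-156456179, 16195 bases from Cnbd2. In brain the B6 samples read 10.67, 10.40 and 10.63 and the congenic samples 10.24, 9.91 and 9.90. The groups did not overlap, and congenic brain was lower by 0.55 ± 0.12 on the log2 scale (SE, n = 3 per group, adjusted p = 0.0237), about 1.47-fold. In adipose the B6 samples read 9.79, 10.09 and 10.02 and the congenic samples 9.53, 9.68 and 9.85, which overlap, with a difference of -0.28 ± 0.12 (SE, adjusted p = 0.573). The difference was 0.03 in liver and -0.10 in muscle. The mean over the 4 tissues was -0.23 ± 0.06 (SE, adjusted p = 0.0532), and the interaction did not pass (adjusted p = 0.346), so the brain difference was not shown to exceed that in other tissues. Cnbd2 differed by -0.14 ± 0.09 in brain (SE, adjusted p = 0.618).

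The brain call depended on the settings and on single arrays. It was lost with median scaling (-0.47, adjusted p = 0.0942), with the well row of the slide as a block (-0.35, adjusted p = 0.396) and in a fit of brain samples alone (-0.55, adjusted p = 0.352). Without B6 brain replicate 1 the adjusted p was 0.161, without B6 brain replicate 3 it was 0.141, without congenic brain replicate 2 it was 0.185 and without congenic brain replicate 3 it was 0.172. It was also over the threshold without congenic adipose replicate 3 (0.0573), B6 adipose replicate 2 (0.0565) or B6 adipose replicate 3 (0.0513), which are arrays of another tissue. The change stayed between -0.66 and -0.50 over all 24 fits without 1 array. On slide 1 well row A held congenic samples only. The median raw intensity of the arrays was 444, 377 and 470 for B6 brain and 298, 1237 and 511 for congenic brain. The neuronal genes Napb and Snhg11, the 2 measured of 3 listed, summed to between 11.98 and 12.55 in B6 brain and between 11.57 and 11.93 in congenic brain, also without overlap. The 3 listed immune genes, B2m, Cd40 and Samhd1, summed to between 10.96 and 11.34 in B6 brain and between 11.41 and 11.65 in congenic brain, again without overlap. The part of these in the difference of AK016198 was not tested.

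Both exon features of AK016198 had lower means in congenic brain. Feature 1 read 10.33, 10.34 and 10.35 in B6 brain and 10.18, 10.02 and 9.80 in congenic brain (-0.34 ± 0.15, SE, adjusted p = 0.477 over the 3099 exon features). Feature 2, of 276 bases, read 11.01, 10.46 and 10.90 in B6 brain and 10.29, 9.80 and 9.99 in congenic brain (-0.76 ± 0.18, SE, adjusted p = 0.0607). Neither feature overlapped between genotypes in brain, and feature 2 carried the larger difference. In the mean of the 4 tissues feature 2 was lower by 0.36 ± 0.09 on the log2 scale (SE, adjusted p = 0.0413) and feature 1 differed by -0.09 ± 0.07 (SE, adjusted p = 0.713). The features also differed in tissue order: feature 1 was highest in muscle and feature 2 in brain.

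**Figure D4:**
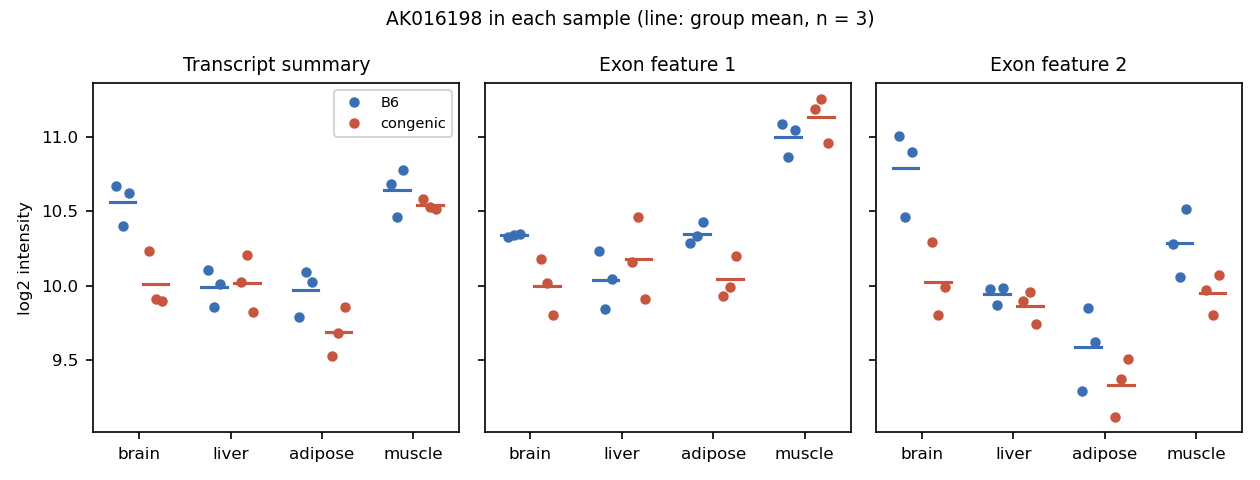
Log2 intensity of AK016198 (vertical axis, shared by the 3 panels) in every sample by tissue, as the summary of the transcript and for each of its 2 exon features, with B6 in blue, congenic in red and a line at the mean of 3 samples. In brain the 3 congenic samples lie below the 3 B6 samples in all panels.

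Tested exon by exon, 150 features belonged to the 40 transcripts. In the mean of the 4 tissues 1 of 150 was called (0.667%, beside 1.23% of all 3099 features), feature 2 of AK016198. The count was 0 without any one of B6 brain 1, B6 liver 1 or 3, B6 adipose 2 or 3, B6 muscle 1 or 3, congenic brain 2 or 3, congenic liver 1 or 3, congenic adipose 1 or 2 and congenic muscle 1 or 2. It was 2 without B6 liver 2, congenic liver 2 or congenic brain 1, the numbers being replicates. In liver 2 of 150 features were lower in congenic mice (1.33%, beside 1.03%). In brain 0 of 150 (beside 0.355%), in adipose 0 (0.387%) and in muscle 0 (0.355%) were called by limma. At an unadjusted p under 0.05 there were 14 of 150 in brain (9.04% of all features), 18 in liver (13.9%), 5 in adipose (4.07%), 3 in muscle (4.13%) and 15 in the mean of tissues (11.1%).

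The first liver feature was exon 16 of AF244125, 192 bases at chr2:161670606-161670797. It read 11.61, 10.92 and 12.33 in B6 liver and 10.46, 10.19 and 10.47 in congenic liver. The groups did not overlap, although the B6 samples spread widely, and congenic liver was lower by 1.25 ± 0.21 on the log2 scale (SE, adjusted p = 0.00663). In brain, adipose and muscle the same feature differed by 0.26, 0.03 and 0.05. Among the 30 features of AF244125 in liver 14 were lower and 16 higher, with a median of 0.039 and extremes of -1.25 and 0.57, and the transcript as a whole differed by 0.05 ± 0.06 (SE, adjusted p = 0.784). The gene 9430021M05Rik, which starts 15 bases away on the other strand, was higher in congenic liver by 0.47 ± 0.10 (SE, adjusted p = 0.0141).

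**Figure D5:**
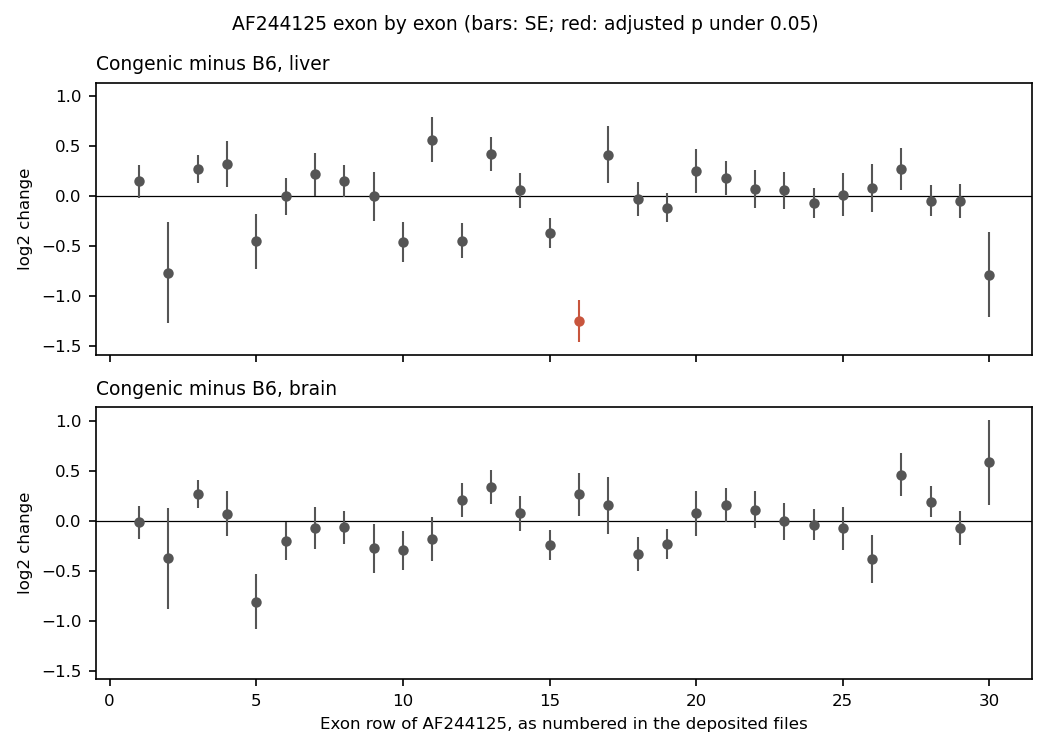
Congenic minus B6 difference in log2 intensity (vertical axes, bars for the standard error) for each of the 30 exon rows of AF244125 as numbered in the files (horizontal axis), in liver and in brain. In liver exon 16 lies at -1.25 and apart from its neighbours, and in brain the same exon lies at 0.26.

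The second liver feature was exon 3 of AY512942, 104 bases at chr2:152432046-152432149. It read 7.90, 8.11 and 8.63 in B6 liver and 7.32, 7.26 and 7.55 in congenic liver, without overlap. Congenic liver was lower by 0.84 ± 0.19 on the log2 scale (SE, adjusted p = 0.0386). The feature differed by -0.19 in brain, -0.13 in adipose and 0.05 in muscle, and the summary of AY512942 differed by -0.06 ± 0.09 in liver (SE, adjusted p = 0.875). Both liver features rest on 3 probes each. The median raw intensities of the liver arrays were 454, 232 and 294 in B6 and 456, 741 and 667 in congenic mice. The B6 livers lay in well rows C, B and B of the slide, the congenic livers in rows A, B and A. The part of intensity or well row in the liver features was not tested. Neither feature is given here under another setting.

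Per tissue, the 2 transcripts with the smallest p-values in each direction were looked at singly, and apart from AK016198 in brain none of them passed. In brain AK045769, 6314 bases from Macrod2, read 9.52, 9.38 and 9.55 in B6 and 9.87, 9.97 and 9.70 in congenic mice. The samples did not overlap, and the difference was 0.36 ± 0.13 (SE, adjusted p = 0.417). M10062 in brain differed by 0.46 ± 0.20 (SE, adjusted p = 0.425) with 1 overlapping sample, from 9.13, 8.81 and 9.37 in B6 to 9.28, 9.78 and 9.64 in congenic mice. AK076437 differed by -0.13 ± 0.09 (SE, adjusted p = 0.682).

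In liver AK033371 read 10.56, 10.38 and 10.20 in B6 and 10.72, 10.78 and 10.79 in congenic mice. These samples did not overlap, and the difference was 0.38 ± 0.14 (SE, adjusted p = 0.22). AK040896 in liver read 10.76, 10.96 and 11.10 in B6 and 11.44, 11.03 and 11.13 in congenic mice, an overlapping difference of 0.27 ± 0.13 (SE, adjusted p = 0.377) that was 0.17 without B6 liver replicate 1 and 0.15 without congenic liver replicate 1. AK015848 differed by -0.32 ± 0.15 (SE, adjusted p = 0.377) and J03023 by -0.12 ± 0.07 (SE, adjusted p = 0.552). The value of AK015848 rested on B6 liver replicate 1, at 11.96 against 11.09 and 11.22 in the other B6 livers, and all fits without 1 array ran from -0.49 to -0.05.

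In adipose AF303452 read 10.97, 11.36 and 11.04 in B6 and 10.35, 11.00 and 10.29 in congenic mice, a difference of -0.58 ± 0.23 (SE, adjusted p = 0.573) with 1 congenic sample inside the B6 range. AK011956 differed by 0.25 ± 0.19 and AK082966 by 0.20 ± 0.16 (SE, adjusted p = 0.992 for both). For both, congenic adipose replicate 1 stood above the other samples, at 10.52 for AK011956 and 10.17 for AK082966. That array and congenic muscle replicate 3 had the highest summed level of 6 listed seminal vesicle genes, 13.56 and 13.74, against 10.92 to 12.37 on all other arrays. In adipose these genes also separated the genotypes, with 12.32 to 13.56 on the congenic arrays and 11.20 to 12.12 on the B6 arrays. Their part in the adipose differences given here was not tested. Without these 2 arrays the adipose difference was 0.04 for AK011956 and 0.02 for AK082966.

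In muscle AK082966 differed by 0.28 ± 0.16 (SE, adjusted p = 0.869), M64228 by 0.14 ± 0.08 (SE, adjusted p = 0.886), AK053350 by -0.24 ± 0.13 (SE, adjusted p = 0.869) and AK088963 by -0.49 ± 0.29 (SE, adjusted p = 0.886). AK053350 read 10.58, 10.69 and 10.67 in B6 muscle and 10.33, 10.51 and 10.38 in congenic muscle, without overlap. AK088963 read 11.62, 11.01 and 10.77 in B6 muscle and 10.12, 10.91 and 10.91 in congenic muscle, with overlap. The AK088963 difference was -0.28 without B6 muscle replicate 1 and -0.20 without congenic muscle replicate 1, and that of AK082966 was 0.086 without congenic muscle replicate 1.

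Overlapping accessions served as a check of how far measurements of shared sequence went together. After removing the mean of each group, the correlation over 24 arrays was 0.80 for AF303451 with AF303452 and 0.85 for AK083524 with AK088963. It was 0.67 for AK015848 with AK053350 and 0.29 for M64228 with BC051422. The points of each correlation share their arrays. For AF303451 with AF303452, 1 exon feature has the same coordinates in both, with separate values for each accession.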

How the data were processed

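Each sample has a deposited file of linear scanner intensity, averaged by exon over its probes, as far as the file headers show. The deposited value table holds the authors' probe intensities, with RMA named in the submitters' processing notes; neither its settings nor a genome build is given in the sources used here. From the exon intensities, normexp correction (offset 50), quantile normalization over 24 arrays, log2, averaging of exon rows with identical coordinates and median polish gave 1 value per transcript and array. limma 3.58.1 in R 4.3.3 fitted a mean for each of the 8 groups with a shared spread, and p-values were adjusted by Benjamini-Hochberg over 341 genes or 3099 exon features. The design text calls the replicates biological. Precision is limited by 3 arrays per group. The fit was tested on simulated data with 1 spread for all genes. The changes planted there were larger than any genotype change of a transcript given here. Recovery of changes as small as that of AK016198 in brain was not tested.

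The transcripts, gene lists and alternatives were chosen with earlier results of these data known. Named transcripts are those called between genotypes, the 2 smallest p-values per direction and tissue, and the 3 largest excesses per tissue. The called exon features were named after their values were seen. Results of 4 overlapping transcripts at 1 locus are counted but not reported singly here. Alternatives covered background, scaling, summary, dim features (lowest 25% left out), replicate and well row blocks, the samples in the fit and each array left out. Python 3.11.15 with matplotlib 3.10.9 drew the figures.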

Additional observations from a re-analysis of the deposited data

Results flagged for a closer look

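U00677 differed between genotypes with opposite signs in liver and adipose, and neither difference passed (limma, adjusted p = 0.455 in liver and 0.711 in adipose). Its congenic liver samples read 10.17, 10.31 and 10.24 against 10.14, 10.03 and 10.16 in B6, a difference of 0.13, with every congenic sample above every B6 sample. Its congenic adipose samples read 10.11, 10.02 and 10.11 against 10.39, 10.12 and 10.13 in B6, a difference of -0.13, with every congenic sample below every B6 sample, by a margin smaller than the rounding for the closest pair. The difference between these tissues alone was not tested, and the interaction over all 4 tissues did not pass (limma, adjusted p = 0.604).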

How the results depend on the processing

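The count of transcripts changed in brain was 1 and became 0 with median scaling, with a block for slide and well row and in a fit of the tissue alone. The count in the mean of tissues was 0 and became 1 with the mean of exon features in place of median polish. The count of exon features in the mean of tissues was 1 and became 0 with the well row block and without the 2 arrays high in seminal vesicle genes, an alternative chosen after seeing the data. AK076437 in brain reversed to 0.0019 with the well row block, and brain minus liver of S74315 reversed to -0.047 with median scaling. Leaving out each array in turn gave 0 to 1 in brain, 0 to 1 in the mean, 0 to 2 exon features, 14 to 18 for brain against liver, 10 to 17 for adipose against muscle and 28 to 33 over tissues; brain minus liver of S74315 ran from -0.034 to 0.12. Liver, adipose, muscle and interaction counts were 0 under every setting run. Other settings gave 15 to 20 for brain against liver, 14 to 21 for adipose against muscle and 24 to 34 over tissues. Of 223 values of named transcripts under the other settings, 211 kept their direction and side of the threshold. Replicate numbers showed no clear pairing of samples. Of 84 same-numbered pairs 21 had deviations with r over 0.1, and the median r was 0.020 against 0.0022 for other pairs. Of 24 samples, 10 were closest to their own number. Correlations this weak, from few arrays per group, cannot exclude that tissues of 1 mouse share a number. The main fit had no term for the replicate number. With the replicate block the brain count stayed 1, the mean, liver, adipose, muscle and interaction counts stayed 0, and the tissue counts were 16, 14 and 30. The deposited value table was not run as an alternative because its 739 probes without a symbol carry no transcript name. S57425 had no value with dim exon features left out.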

Other observations

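Transcripts at separate loci varied together between arrays of the same group. AF303451, AF303452, AK083524, AK088963 and M10062, at 3 loci, were looked at after their values were seen. After removing group means, the 8 correlations between different loci ran from 0.68 to 0.87 over 24 arrays. Over all 626 pairs of described transcripts at different loci the median was -0.0084, and the highest value outside the 8 was 0.76. The pairs share arrays, normalization and, within a locus, sequence. Among named genes, Oser1 had the highest correlation with AK088963, at 0.67.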
